A study of Zea mays with 8 samples.

Results

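The genes described here belong to the basal endosperm transfer layer of the maize (Zea mays) kernel, and they are the MYB-related transcription factor MRP1 (GRMZM2G111306) and 8 genes of the same cell layer. The 8 genes are MEG1 (GRMZM2G354335), the gene pair listed as meg2 (GRMZM2G088896 and GRMZM2G094054), betl3 (GRMZM2G175976), betl-9 (GRMZM2G087413), betl10 (GRMZM2G091445), bap2 (GRMZM2G152655) and EBE-1 (GRMZM2G129157). They were chosen by gene ID, and they are 9 of the 39423 genes in the deposited expression table. Endosperm RNA was sequenced from 4 pools of ded1-ref kernels, which carry a mutant allele of the gene ded1, and from 4 pools of their normal siblings, each ded1-ref pool being paired with 1 normal pool. All pools were in the W22 background and were collected 12 days after pollination, and ded1-ref is the single mutant allele compared. The tissue is labelled both as kernel and as endosperm, each library is a pool, and how many kernels it held is not given in the labels.

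The transfer layer is the band of endosperm cells next to the mother plant, with ingrown walls through which sugar enters the kernel. MRP1 is the transcription factor of this layer, and it is known to activate promoters of genes expressed there. Many of those genes encode small secreted peptides rich in cysteine. MEG1 is known as a maternally expressed gene that takes part in forming the transfer cells. The betl and bap genes encode small proteins of the layer, and bap2, also called betl2, belongs to the basal layer antifungal proteins. EBE-1 is named for its expression in the embryo sac and in the basal and embryo-surrounding endosperm.

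The libraries held 13924952 to 20725033 recovered reads in ded1-ref endosperm and 10536845 to 16246294 in normal endosperm. The recovered reads are whole read numbers computed from the deposited tables. The mutated gene, ded1 (GRMZM2G121570), stood at 67.3 to 101 TPM (a share of the library corrected for transcript length) in ded1-ref libraries and at 37.0 to 42.0 TPM in normal libraries, so its level does not check the labels.

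MRP1 was almost absent from ded1-ref endosperm. It had 0, 2, 1 and 1 reads in ded1-ref replicates 1 to 4, against 47, 54, 102 and 16 reads in normal replicates 1 to 4. As levels these were 0, 0.116, 0.0697 and 0.0610 TPM in ded1-ref libraries and 3.46, 5.78, 6.91 and 1.36 TPM in normal libraries. Every ded1-ref library lay below every normal library, and the lowest normal library was replicate 4. The mean was 0.0617 ± 0.0477 TPM in ded1-ref endosperm and 4.38 ± 2.47 TPM in normal endosperm (SD, n = 4 each). Reads divided by size factors, which set the median gene equal between libraries, put MRP1 in ded1-ref endosperm at 2.30% of its normal level (4 reads against 219; 95% interval 0.621 to 5.97%, exact binomial, counting error only). In the authors' deposited table the log2 fold change of MRP1 is -3.87, with an adjusted p of 1.67e-11.

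**Figure D1:**
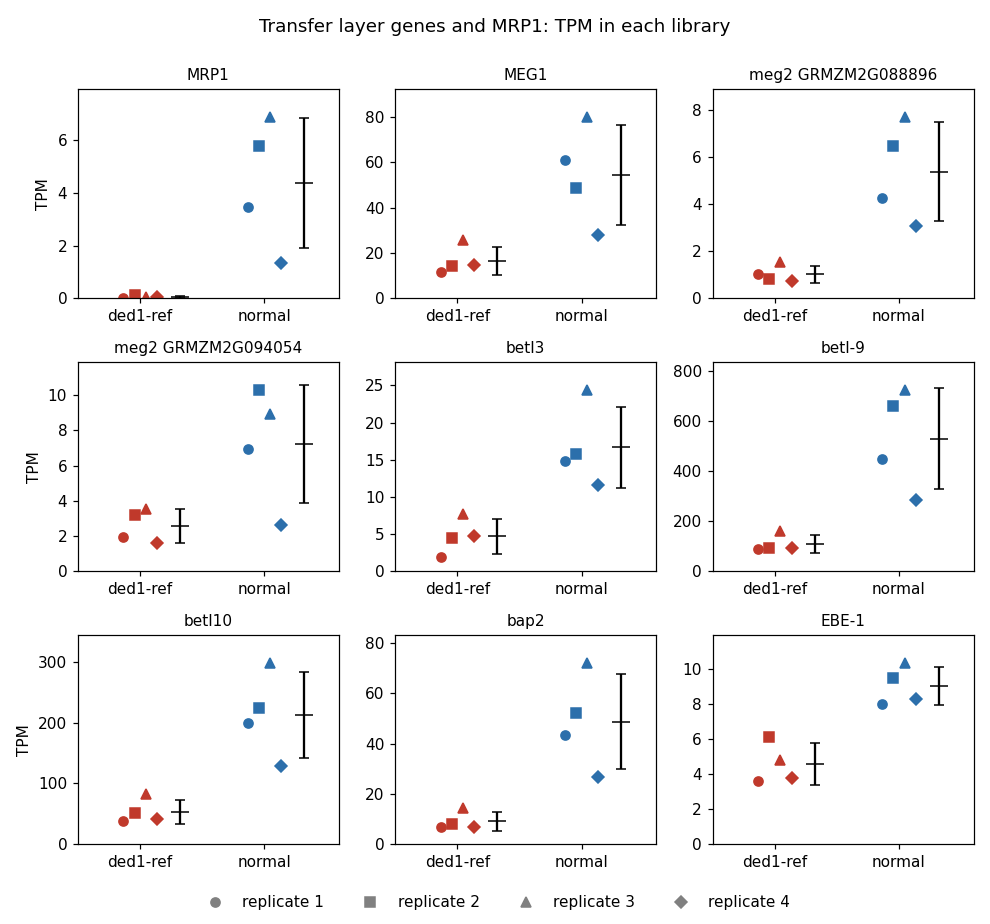
TPM of MRP1 and the 8 transfer layer genes, with ded1-ref libraries in red at the left of each panel and normal libraries in blue at the right; marker shapes are replicate numbers, and the bar beside each group is the mean ± SD (n = 4). MRP1 lies between 0 and 0.116 TPM in ded1-ref libraries and between 1.36 and 6.91 TPM in normal libraries, while betl-9 keeps 91.3 to 161 TPM in ded1-ref libraries.

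The most abundant gene of the group was betl-9. Its levels were 91.3, 91.7, 161 and 91.8 TPM across ded1-ref replicates 1 to 4, against 447, 660.3, 725 and 286 TPM in normal replicates 1 to 4. The groups did not overlap, and replicate 3 was the highest library of each group. Next came betl10, with 38.6, 51.9, 82.5 and 41.6 TPM in ded1-ref libraries and 199, 224, 298 and 129 TPM in normal libraries. The antifungal gene bap2 stood at 7.07, 8.01, 14.6 and 6.85 TPM in ded1-ref libraries and at 43.5, 52.2, 72.2 and 26.8 TPM in normal libraries. In these genes too replicate 3 was highest in each group and normal replicate 4 was the lowest of its group. MEG1 stood at 11.5, 14.3, 25.7 and 14.6 TPM in ded1-ref libraries and at 61.0, 48.6, 80.2 and 27.8 TPM in normal libraries. For betl3 the levels were 1.93, 4.48, 7.70 and 4.75 TPM in ded1-ref libraries, against 14.9, 15.8, 24.5 and 11.7 TPM in normal libraries. The groups of MEG1 and betl3 were apart, with the nearest libraries being ded1-ref replicate 3 and normal replicate 4.

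The pair of meg2 models was low. GRMZM2G088896 stood at 1.05, 0.815, 1.54 and 0.734 TPM in ded1-ref libraries and at 4.28, 6.48, 7.74 and 3.07 TPM in normal libraries. GRMZM2G094054 stood at 1.94, 3.22, 3.53 and 1.59 TPM in ded1-ref libraries and at 6.96, 10.3, 8.95 and 2.64 TPM in normal libraries. Here the groups overlapped, because normal replicate 4 lay below ded1-ref replicates 2 and 3. The name table of a newer maize assembly joins both IDs in 1 gene, and MEG1 is separated from it by 4 protein-coding genes. Reads of this family could be divided between like copies, though no sequences were compared here. The split between the meg2 models is therefore uncertain. Summed, the pair stood at 2.99, 4.04, 5.07 and 2.33 TPM in ded1-ref libraries and at 11.2, 16.8, 16.7 and 5.71 TPM in normal libraries. EBE-1 differed least, with 3.60, 6.16, 4.83 and 3.79 TPM in ded1-ref libraries and 8.01, 9.51, 10.4 and 8.33 TPM in normal libraries. Nearly all reads came from the first transcript row of each gene. The exceptions were 4 reads of a further row of betl3 in ded1-ref libraries and 10 in normal libraries, and 1 read of a further row of GRMZM2G088896 in normal libraries. The 8 genes together made up 0.0201% ± 0.00677 of all TPM in ded1-ref endosperm and 0.0883% ± 0.0316 in normal endosperm (SD, n = 4 each).

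Most of these genes fell. TPM are shares of a library, and on that scale the median of the 13671 tested genes was lower by 0.68 log2 units in ded1-ref libraries (a median change of -0.68). A gene is therefore said to have fallen only if it passed limma at an adjusted p of 0.05 on log2(TPM + 1) and also on TPM scaled so that the median gene is equal between libraries (median change -0.0029). All 8 transfer layer genes were lower on the TPM scale, as were 69.8% of the tested genes. In 7 of the 8 every ded1-ref library lay below every normal library in TPM, as in 52.6% of the tested genes. By the rule for both scales 6 of the 8 fell, where 10.6% of the tested genes fell. The median change of all 8 in the scaled test was -0.98. MRP1 passed the filter of at least 1 TPM in at least 4 libraries through the normal libraries alone, so that it had to differ, and GRMZM2G088896 reached 1 TPM in 2 ded1-ref libraries.

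By the scaled test MRP1 changed by -1.85 ± 0.24 (SE) on the log2 scale (limma adjusted p = 0.000775). On recovered reads, where limma-voom adds a small offset of its own to the reads, it changed by -4.79 ± 0.65 (limma-voom adjusted p = 0.000248). Since the filter kept MRP1 through the normal libraries alone, it had to differ, and these p-values add no support. In the scaled test the log2 change was -1.47 ± 0.18 (SE) for bap2 (limma adjusted p = 5.0e-04), lower in 4 of 4 pairs. It was -1.39 ± 0.22 for betl-9 (limma adjusted p = 0.00198) and -1.14 ± 0.17 for betl10 (limma adjusted p = 0.00160), each also lower in 4 of 4 pairs. GRMZM2G088896 changed by -1.01 ± 0.19 (limma adjusted p = 0.00484). For betl3 the change was -0.95 ± 0.23 (limma adjusted p = 0.0163) and for MEG1 -0.81 ± 0.21 (limma adjusted p = 0.0248), and all 3 of these were lower in 4 of 4 pairs. These calls of betl3 and MEG1 were lost without the replicate block (limma adjusted p = 0.0839 and 0.144), without replicate 1 (0.0574 and 0.103), without replicate 2 (0.0718 and 0.106) and when no filter was applied (0.0588 and 0.0797). GRMZM2G094054 stood at -0.45 ± 0.20 (limma adjusted p = 0.143) and EBE-1 at -0.14 ± 0.15 (limma adjusted p = 0.574), and neither passed. Each was lower in 3 of 4 pairs. The share of all tested genes lower in 4 of 4 pairs was not counted, so these pair counts do not set the genes apart. On the scaled values the groups of MRP1 were apart, and those of the other 8 genes overlapped; 12% of the tested genes had all ded1-ref libraries below all normal libraries. In the table the authors deposited, 5 of the 9 first rows have an adjusted p under 0.05, as do 14.7% of all its rows with an adjusted p, and the other 4 are those of MEG1 (0.143), betl3 (0.109), GRMZM2G094054 (0.418) and EBE-1 (0.767). In pooled tissue, fewer transfer cells and less RNA per cell cannot be told apart.

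As a share of the normal level, the transfer layer genes kept far more RNA than MRP1. Pooled over libraries and divided by size factors, bap2 in ded1-ref endosperm stood at 31.1% of normal (520 reads against 2104; 95% interval 28.2 to 34.3%). For betl-9 it was 35.0% (33.8 to 36.3%, from 4038 reads in ded1-ref and 14512 in normal libraries) and for betl10 41.9% (39.6 to 44.3%). GRMZM2G088896 stood at 32.9% (22.0 to 48.0%), betl3 at 45.4% (36.8 to 55.8%), MEG1 at 49.3% (44.9 to 54.2%) and GRMZM2G094054 at 61.5% (48.3 to 77.9%). EBE-1 was nearest to its normal level, at 87.8% (80.4 to 95.8%). All 8 intervals lay above that of MRP1. On recovered reads (limma-voom) 97.9% of tested genes were higher relative to MRP1, so keeping more than MRP1 is not particular to these 8. The intervals cover counting error only, and for betl-9, betl10, bap2, MEG1 and betl3 the spread between pairs was wider.

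**Figure D2:**
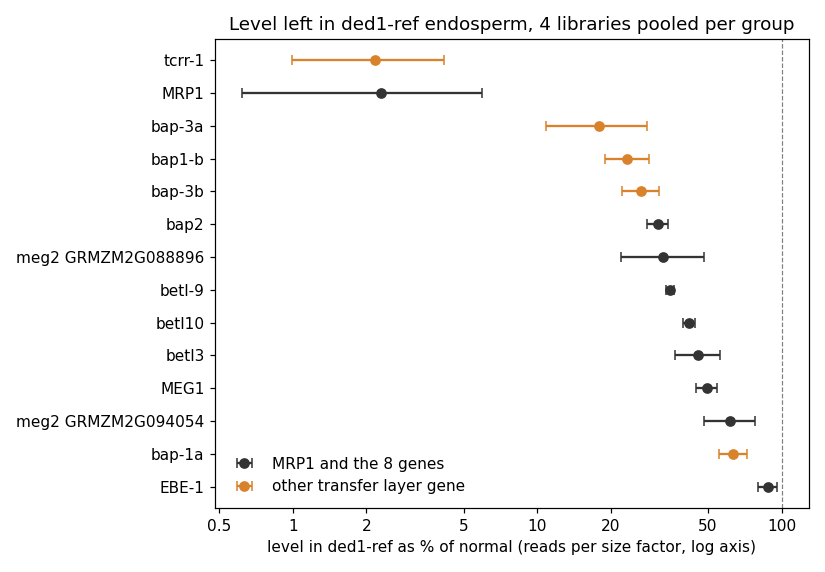
Level in ded1-ref endosperm as a percentage of the normal level (log axis, reads per size factor, 4 libraries pooled per group) for the 9 genes (black) and for 5 further transfer layer genes (orange); lines are 95% exact binomial intervals for counting error only, and the dashed line marks no difference. MRP1 and tcrr-1 lie at 2.30% and 2.18%, and the other genes lie between 17.9% and 87.8%.

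The difference from MRP1 was tested for each gene as its log2 value minus that of MRP1 in the same library; on reads the library size cancels in this difference, while after 1 is added to TPM it does not. On recovered reads (limma-voom) 8 of 8 transfer layer genes were higher relative to MRP1 in ded1-ref libraries, with differences from 3.33 ± 0.68 (SE) for bap2 (limma adjusted p = 1.5e-06) to 4.67 ± 0.66 for EBE-1 (limma adjusted p = 3.6e-12). Of all tested genes 97.9% were higher and 0.00732% lower by this measure, so it does not set these genes apart from others. The fit weighted each difference by the reads of the compared gene and not of MRP1. Its errors and p-values therefore do not fully carry the counting error of MRP1. For betl-9 the difference was 3.44 ± 0.46 (limma adjusted p = 1.4e-13), while MRP1 relative to betl-9 was -3.35 ± 1.18 (limma adjusted p = 0.0073). The call of GRMZM2G088896 (limma adjusted p = 0.0221) was lost without replicate 2 (0.0653) or replicate 3 (0.131). On log2(TPM + 1), where the added 1 compresses a gene as low as MRP1, 2 of 8 passed: EBE-1 (1.34 ± 0.46, limma adjusted p = 0.00567) and GRMZM2G094054 (1.08 ± 0.47, limma adjusted p = 0.0240). Both calls were lost without replicate 1 (limma adjusted p = 0.0676 for EBE-1 and 0.105 for GRMZM2G094054), replicate 2 (0.0719 and 0.0850) or replicate 3 (0.0975 and 0.201). By that measure 91.3% of tested genes were higher, and the differences of betl-9 and bap2 were -0.03 and -0.07. Without replicate 4 the calls of MEG1 (limma adjusted p = 0.0178), GRMZM2G088896 (0.0105) and betl3 (0.0257) were gained. With 0.1 added in place of 1, all 8 passed, with 2.38 for betl-9 and 2.23 for bap2. When TPM were scaled to the median gene before 1 was added, an alternative chosen after seeing the data, 4 of 8 passed (EBE-1, GRMZM2G094054, MEG1 and betl3), and betl-9 and bap2 stood at 0.46 and 0.37. The size of the difference, and for betl-9 and bap2 its sign, therefore rests on how TPM are scaled and how much is added before logs. Adding 1 limits the fall that MRP1 can show, as its normal libraries held only 1.36 to 6.91 TPM. On recovered reads the differences of betl-9 and bap2 were positive, with only 4 reads of MRP1 in ded1-ref libraries. Their size there also rests on the offset that limma-voom adds to the reads. As shares of normal, both genes stood above MRP1 in 4 of 4 pairs.

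Pair by pair, MRP1 and nearly all transfer layer genes were lower in ded1-ref, but whether the sizes of the differences followed each other could not be read at this depth. MRP1 had 0 reads in ded1-ref replicate 1, for which the exact binomial interval runs to 9.68% of normal. In the other pairs it stood at 2.97% (95% interval 0.351 to 11.3%) in pair 2, 2.29% (0.0573 to 13.0%) in pair 3 and 7.61% (0.182 to 49.0%) in pair 4. These intervals overlap, so no order of the pairs can be read for MRP1. For betl-9, betl10, bap2, MEG1 and betl3 some pairs had intervals apart, so these genes spread more widely than their counting error. For GRMZM2G088896, GRMZM2G094054 and EBE-1 the intervals of all pairs overlapped. The intervals leave out the spread between pools. In pairs 1 to 4 betl-9 in ded1-ref stood at 37.5, 20.6, 50.4 and 54.6% of its normal partner, with intervals of 34.9 to 40.1%, 19.1 to 22.2%, 47.4 to 53.6% and 50.3 to 59.3%. For betl10 the values were 35.6, 34.3, 62.6 and 54.9%, and for bap2 29.8, 22.7, 45.8 and 43.5%. MEG1 ran wider, at 34.5, 43.6, 72.5 and 89.2%. In 6 of the 8 genes both of pairs 1 and 2 lay below both of pairs 3 and 4; the exceptions were GRMZM2G088896 and EBE-1. Of the 13630 tested genes with reads in every normal library, 20.4% had that pattern. Of 32 combinations of a transfer layer gene and a pair, 30 were lower in ded1-ref and 32 were above the level of MRP1 in the same pair, 27 of them with intervals apart. The 2 that were not lower were GRMZM2G094054 in pair 4 (103%, interval 49.3 to 211%) and EBE-1 in pair 3 (105%, interval 88.4 to 125%). These counts were not made over all tested genes. On recovered reads 97.9% of tested genes were higher relative to MRP1, so standing above MRP1 does not set these genes apart.

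**Figure D3:**
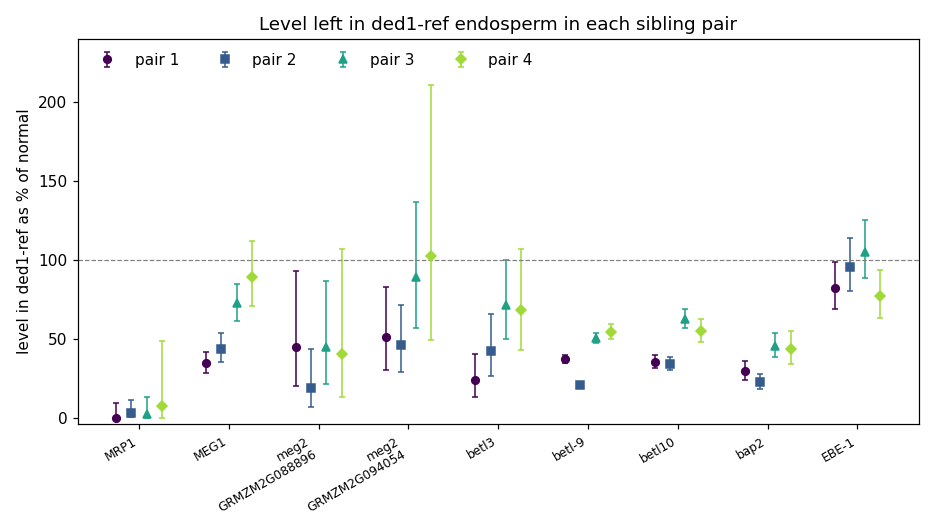
Level in ded1-ref as a percentage of its normal partner in each of the 4 sibling pairs, for MRP1 and the 8 transfer layer genes (reads per size factor; lines are 95% exact binomial intervals, counting error only; the dashed line marks 100%). MRP1 lies between 0 and 7.61%, and betl-9 between 20.6% in pair 2 and 54.6% in pair 4.

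Among the normal libraries the transfer layer genes ran in an order close to that of MRP1. On scaled TPM, MRP1 stood at 2.75, 3.94, 5.01 and 1.01 in normal replicates 1 to 4, and betl-9 at 356, 449.7, 526 and 211. Both were highest in replicate 3, then replicate 2, then replicate 1, and lowest in replicate 4. The same order of 4 libraries was found in 4 of the 8 genes (GRMZM2G088896, betl-9, bap2 and EBE-1), against 3.75% of the other tested genes. On unscaled TPM it was found in 5 of 8, against 4.81%. Such orders carry counting error. In normal replicates 1 and 2 MRP1 had 47 and 54 reads, and GRMZM2G088896 had 29 and 30. EBE-1 was nearly level, at 6.38, 6.47, 7.53 and 6.15 scaled TPM in normal replicates 1 to 4, and its order on unscaled TPM was another. Normal replicate 3 was highest and replicate 4 lowest in 7 of 8 genes on the scaled values, where 8.46% of tested genes had that pattern. The genes of a layer share their libraries and their cells, so these counts are not independent of each other, and with 4 libraries in a group no correlation was tested. The spread differed, since the highest normal library was 4.98 times the lowest for MRP1 and 1.22 times for EBE-1 to 3.60 times for GRMZM2G094054 among the others, on scaled TPM. The ratio of betl-9 to MRP1 in TPM was 129, 114, 105 and 210 in normal replicates 1 to 4, and was thus highest in replicate 4, where MRP1 was lowest.

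Within the ded1-ref libraries MRP1 had no usable order, with 0 to 2 reads each, yet the transfer layer genes still varied. On scaled TPM betl-9 stood at 132, 92.8, 264 and 115 in ded1-ref replicates 1 to 4, and the highest library exceeded the lowest 1.66-fold for EBE-1 to 4.52-fold for betl3. Replicate 3 was the highest ded1-ref library in 8 of 8 genes on scaled TPM, where 29.8% of tested genes had that pattern, and in 7 of 8 on unscaled TPM, where 10.1% had it. In it MRP1 had 1 read. This library had the lowest total of the ded1-ref group (13924952 reads), and its sums of scaled TPM were 38.4 for the embryo-surrounding region list and 396 for the embryo list, against ranges of 29.0 to 71.3 and 405 to 661 in the other ded1-ref libraries. For the central starchy endosperm list its sum of 2974 was the highest of the ded1-ref group (the others held 1979 to 2423), and for the aleurone list its sum of 32.4 was the lowest (the others held 45.3 to 70.9). The sums of the embryo and central starchy endosperm lists are mostly those of ole1 and ae1. The size factor of this library, 0.606, was the lowest of the 8 libraries. The part of these differences in the result was not tested. Without replicate 3 the scaled log2 changes of bap2, betl-9 and betl10 were -1.60, -1.52 and -1.29.

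**Figure D4:**
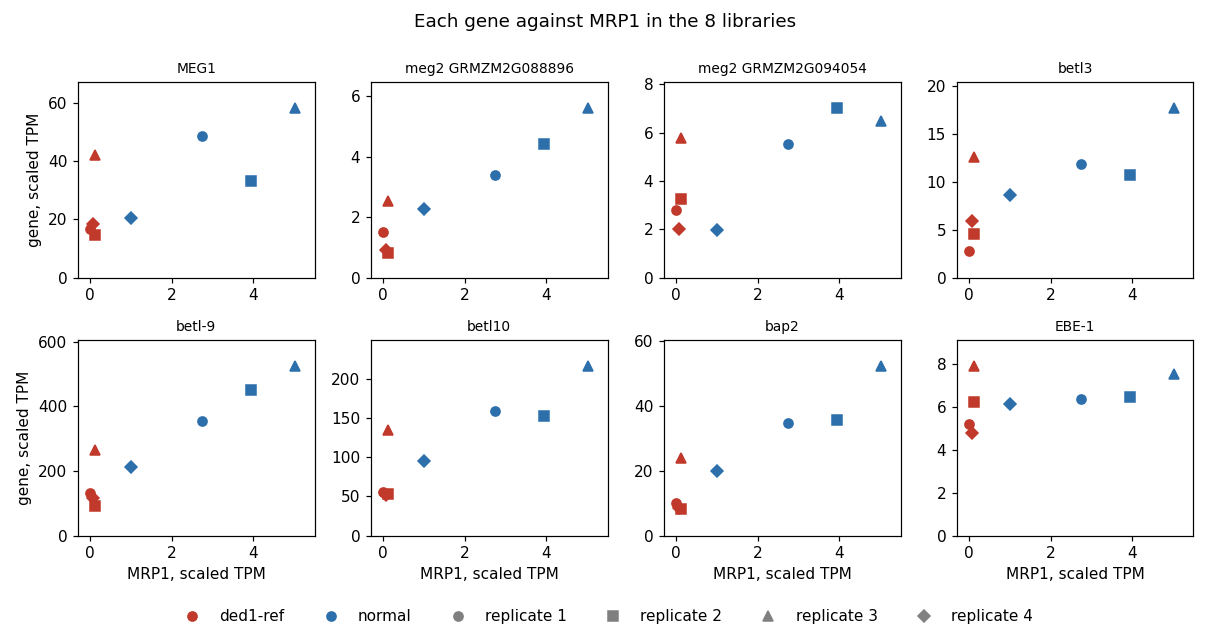
Scaled TPM of each transfer layer gene (vertical axis) against scaled TPM of MRP1 (horizontal axis) in the 8 libraries, ded1-ref in red and normal in blue, with marker shapes for replicates. The ded1-ref libraries stand at MRP1 levels of 0 to 0.117, where betl-9 spans 92.8 to 264; the normal libraries span 1.01 to 5.01 for MRP1 and 211 to 526 for betl-9.

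The transfer layer genes also differed among themselves. Each gene was set against betl-9, the gene with the most reads, within the same library, a comparison chosen after the values were seen. EBE-1 was higher relative to betl-9 in ded1-ref libraries by 1.36 ± 0.40 log2 units (SE; limma adjusted p = 0.00102), and by 1.25 ± 0.36 on recovered reads (limma adjusted p = 8.8e-04). GRMZM2G094054 passed on log2(TPM + 1) (1.10 ± 0.41, limma adjusted p = 0.00794) but not on recovered reads (0.85 ± 0.61, limma adjusted p = 0.183), with a pseudocount of 0.1 (0.0674) or without replicate 1 (0.0562). For MEG1, GRMZM2G088896, betl3, betl10 and bap2 the differences from betl-9 were 0.60 ± 0.36, 0.62 ± 0.40, 0.54 ± 0.40, 0.26 ± 0.32 and -0.05 ± 0.37, and none passed, which does not show that they moved alike. Of all tested genes 94.3% were higher and 0.402% lower relative to betl-9, and on recovered reads 76.9% were higher and 1.14% lower.

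Other genes of the layer were taken from the name table by symbol. There were 9 of them, of which 5 could be tested, and 4 fell on both scales, as did 10.6% of all tested genes. They are tcrr-1, a response regulator of transfer cells in cytokinin-type signalling, and the antifungal protein genes bap1-b, bap-3b and bap-3a. The median scaled change of the 5 was -1.80, but tcrr-1 and bap-3a reached 1 TPM in no ded1-ref library, so that they could pass the filter through the normal libraries alone. Of the 5 tested genes, tcrr-1 (GRMZM2G016145) kept the least. Its levels were 0.0726, 0.443, 0.106 and 0.186 TPM across ded1-ref replicates 1 to 4, against 13.4, 23.2, 20.4 and 8.05 TPM in normal replicates 1 to 4, with no overlap. In ded1-ref it was at 2.18% of normal (9 reads against 520; 95% interval 0.990 to 4.17%), close to the 2.30% of MRP1, and its difference relative to MRP1 on recovered reads was -0.49 ± 1.97 (SE; limma adjusted p = 0.805), an error too wide to say that they moved alike. The antifungal protein genes kept more: bap-3a was at 17.9% (10.9 to 28.0%), bap1-b at 23.4% (18.9 to 28.6%), bap-3b at 26.5% (22.2 to 31.5%) and bap-1a at 63.4% (55.5 to 72.3%). Of these 4, bap-1a did not pass the scaled test (log2 change -0.44 ± 0.19, limma adjusted p = 0.126). The bap genes may be close copies, which was not checked here, and how the counting divided their reads is not given. The remaining genes of the list were too low to test. BETL1, known as an abundant transcript of the layer, was listed at 0 in all libraries. INCW2, the cell wall invertase gene also called mn1, had 0 reads in ded1-ref libraries and 20 in normal libraries, betl4 had 8 and 22, and EBE-2 had 7 and 4.

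Over the 8 libraries, the tested genes whose centred log2 profile was nearest to that of MRP1 were GRMZM2G080556, GRMZM2G084462, GRMZM2G402156, GRMZM2G093346 and GRMZM2G136771. Their root mean square differences from MRP1 were 0.116, 0.212, 0.242, 0.291 and 0.297 log2 units of scaled TPM + 1. GRMZM2G080556, GRMZM2G084462, GRMZM2G402156 and GRMZM2G093346 reached at most 0.0925, 0.357, 0.621 and 0.0445 TPM in ded1-ref libraries. They passed the filter through the normal libraries alone, as MRP1 did, so that they had to differ. GRMZM2G080556 had 1 read in ded1-ref libraries and 137 in normal libraries, with means of 0.0231 ± 0.0463 and 4.15 ± 1.99 TPM (SD, n = 4 each). GRMZM2G093346 had 3 reads in ded1-ref libraries and 349 in normal libraries. Of 13670 genes ranked this way, betl-9 came at 91, bap2 at 93, GRMZM2G088896 at 177, betl10 at 233, betl3 at 580, MEG1 at 620, GRMZM2G094054 at 1019 and EBE-1 at 3727. Among the other transfer layer genes bap-3a came at 28, bap1-b at 152, tcrr-1 at 852, bap-3b at 956 and bap-1a at 1316. The measure compares log2 differences after 1 is added, which compresses MRP1. On that scale tcrr-1 changed by -3.29, MRP1 by -1.85, bap2 by -1.47 and betl-9 by -1.39. As shares of normal they stood at 2.18, 2.30, 31.1 and 35.0%, so a near rank does not show a like fall.

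Markers of other kernel parts were read in the same libraries, beside shares of all tested genes of 12.3% higher in the scaled test and 10.6% fallen on both scales. Of the embryo-surrounding region list, whose cells adjoin the transfer layer, 3 of 4 measured genes were tested and none passed either test; the summed scaled TPM was 29.0 to 71.3 in ded1-ref libraries and 8.52 to 37.8 in normal libraries. The lowest sum was that of normal replicate 4, which was also the lowest normal library for MRP1. Of the central starchy endosperm list 7 of 7 were tested, none passed the scaled test, and the sums were 1979 to 2974 in ded1-ref libraries and 2068 to 2515 in normal libraries. The embryo list had sums of 396 to 661 in ded1-ref libraries and 220.0 to 383 in normal libraries, with 3 of 4 tested genes higher in the scaled test and 1 of 4 on the TPM scale, where 3.53% of tested genes were higher. Most of the embryo sum was ole1, with means of 325 TPM in ded1-ref and 385 TPM in normal libraries. Most of the central starchy endosperm sum was likewise ae1, with means of 1493 and 2667 TPM. Of the 9 measured genes of the embryo list, wox5b was at 0 reads, glb2 and kn1 had 1 read each and lec1 had 6, all of these in ded1-ref libraries. The aleurone list had sums of 32.4 to 70.9 in ded1-ref libraries and 24.1 to 37.6 in normal libraries, with 3 of 7 tested genes higher on both scales (c1, a2 and bz2) and 3 others lower on the TPM scale (dek1, vpp1 and sal1). Of these, a2 and bz2 passed the filter through the ded1-ref libraries alone, so that they had to differ. The maternal kernel tissue list had sums of 0.579 to 3.27 in ded1-ref libraries and 0.711 to 4.79 in normal libraries, with none of its 4 genes high enough to test. ZCN11, of the endosperm adjacent to the scutellum, stood at 0.711 to 1.20 scaled TPM in ded1-ref libraries, against 10.2 to 20.5 in normal libraries. It reached 1 TPM in no ded1-ref library, so it passed the filter through the normal libraries alone. The part of these tissues in the falls of the transfer layer genes was not tested.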

How the data were processed

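Endosperm RNA from 4 ded1-ref and 4 normal pools was read from 2 ends of 100 bp, in libraries without strand, per the labels' protocols. The tools named are GSNAP 2013-07-20, Trimmomatic 0.22 and cutadapt 1.1, per the submitters' processing notes. The counter and the genome build were not given in the sources used here. TPM per transcript row, which keep no depth, were deposited by the authors. They also deposited, per the file headers, a mean normalized signal, a log2 fold change with its standard error, a test score and p-values. Whole reads were recovered from the deposited TPM and mean signal: 100% of 236228 values above 0 were whole to within 0.05 reads. Rows were summed to genes. Levels were tested with limma 3.58.1 (R 4.3.3) on log2(TPM + 1), blocked by replicate number, with Benjamini-Hochberg adjustment over all tested genes. The scaled test is the same fit after division of TPM by factors from the median of ratios. The blocks follow the stated sibling pairing and the shared pool numbers in the titles, and deviations within the pairs correlated at 0.110, 0.327, 0.296 and 0.149. Alternatives were limma-voom on the recovered reads, a pseudocount of 0.1, no filter, no block, upper quartile scaling and each replicate left out. All 9 genes are named by rule, together with tested genes of the symbol list and the 5 nearest to MRP1. The genes, lists and fits were chosen with earlier results of these data known, and the comparison with betl-9 and the scaling before differences from MRP1 after the values were seen. From the symbol match 3 transporter genes also called MRP, and from the marker lists 3 genes sharing a symbol, were left out. The name table holds 8 of the 9 IDs; the name of MRP1 was taken from its given ID. Fits were run on simulated data in which MRP1 was lowered less than in these libraries and no sibling pairing was built in. They do not check the difference from MRP1 at its level here. Promoter motifs were planned and not analysed here. Pools are labelled biological replicates. With the block, p-values rest on the spread of the differences within the sibling pairs, which limma moderates across genes.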

Additional observations from a re-analysis of the deposited data

Results flagged for a closer look

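In groups of 4 libraries, a library was picked out where its gap to the nearest other exceeded Dixon's 95% critical share of the group's range, which chance does in about 1 of 20 groups; 36 groups were examined and 5 were picked out. All 5 were ded1-ref replicate 3. On TPM it stood at 161 for betl-9, where the next ded1-ref library was at 91.8, and at 14.6 for bap2, where the next was at 8.01. On scaled TPM it stood at 42.1 for MEG1 (next 18.4), 135 for betl10 (next 55.7) and 23.9 for bap2 (next 10.2). The genes share this library, so these are not independent events.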

How the results depend on the processing

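On the TPM scale every call of the 9 genes held under the 8 alternatives run. In the scaled test the calls of MRP1, GRMZM2G088896, betl-9, betl10 and bap2 held under all 9, and those of MEG1 and betl3 were each lost under 4. MRP1 passed the filter through the normal libraries alone, so that it had to differ wherever the filter was used. Without the replicate block the number of genes higher and lower was 402 and 8842 on the TPM scale (482 and 9539 with it), 1397 and 1242 in the scaled test (1688 and 1445 with it), and 12366 and 46 relative to MRP1 (12474 and 49 with it); it changed no call of the 9 genes other than the scaled calls of MEG1 and betl3. Leaving out a replicate gave 359 to 539 higher and 7963 to 9240 lower genes on the TPM scale, and 1148 to 1447 higher and 917 to 1209 lower in the scaled test, the lowest without replicate 2. Relative to MRP1 it gave 6662 to 13337 higher and 22 to 58 lower genes. There 28154 genes were higher without a filter, since more genes were tested, and 14 were lower with a pseudocount of 0.1; on recovered reads 1 was lower with or without the block, and 0 to 3 when a replicate was left out.

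Relative to MRP1, the differences of betl-9 and bap2 changed sign. They were 2.38 and 2.23 with a pseudocount of 0.1, 3.44 and 3.33 on recovered reads, 3.41 and 3.25 there without the block, and 0.46 and 0.37 on log2(scaled TPM + 1). On recovered reads without replicates 1 to 4 they were 2.95, 3.76, 3.28 and 3.77 for betl-9 and 2.90, 3.56, 3.16 and 3.67 for bap2. On log2(TPM + 1) leaving out a replicate gave -0.28 to 0.12 for betl-9, -0.31 to 0.13 for bap2 and -0.0402 to 0.46 for betl10, which was below 0 without replicate 3. Relative to betl-9, MRP1 stood at 0.03, but at -2.38 with a pseudocount of 0.1, -3.35 on recovered reads, -0.46 on log2(scaled TPM + 1), and -0.12 to 0.28 when a replicate was left out. GRMZM2G088896 was at -0.0056 with a pseudocount of 0.1 and -0.0338 on recovered reads, and bap2 ran from -0.15 to 0.0050 when a replicate was left out. In ded1-ref libraries MRP1 had 4 reads, and its values carry the counting error of that number.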
